A study of Mus musculus with 6 samples.

Results

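Of the 2890 probe sets in the deposited intensity table, 5 were named as stefins or cystatins by the rule used here. Of these, 4 lie in the stefin cluster on chromosome 16 (Cstdc5, Stfa2l1, Stfa1 and Stfa2) and 1 is Cst7, the gene for cystatin F, on chromosome 2. A probe set was included when the authors' list of changed genes gave it a name with stefin or cystatin, or the symbol Stfa1, Cst7 or Cstdc5, the last of these listed there as BC100530 and updated through its Entrez number. That list holds 656 probe sets, every one with a difference of 2-fold or more between treatments, so the members were chosen on the same contrast that is described here and their differences are given without a test. Another stefin of the cluster, Csta3, is on the list under a predicted gene's name that the rule does not take in, and its values are given beside those of the members. No other family member is named in the tables, and the rest were not analysed.

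The 6 samples, from 3 independent experiments, were hybridised to Affymetrix Mouse Gene 1.0 ST arrays. In each experiment, bone marrow cells of 3 SV129/BL6 mice (wild type, young adults by the paper's general methods, age not in the sample records) were pooled, cultured with 10 ng/ml M-CSF for 48 hours and separated by density (the sample records and the paper differ on which step came first), and the osteoclast precursors were split into a pair of dishes. One dish received 20 ng/ml M-CSF with 200 ng/ml sRANKL (M-CSF + sRANKL, n = 3), and its partner received 20 ng/ml M-CSF alone (n = 3), both for 2 days. M-CSF was therefore common to all 6 dishes. The gradient enriches the precursors and does not purify them, and the sRANKL was made from a construct in a bacterial expression vector.

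Cystatins are reversible inhibitors of papain-like cysteine proteases, the class to which most lysosomal cathepsins belong. Stefins are the small cytosolic members of the superfamily, and in the mouse the stefin A genes form an expanded cluster that is strongly expressed in neutrophils and their bone marrow precursors. Cystatin F is made by leukocytes and reaches endosomes and lysosomes, where it restrains cathepsin C and related proteases. Osteoclasts resorb bone with cathepsin K, a cysteine protease of the same class.

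The upstream sequences of the members are shown first, because the stefins of the cluster are close copies of each other while Cst7 is not. Each line gives the 150 bases before the annotated transcript start, from RefSeq on build GRCm38.p6, which held an entry for all 5 genes. Capitals mark runs of at least 12 bases that all 4 stefin stretches share.
Cstdc5, chr16:36367571-36367720, minus strand: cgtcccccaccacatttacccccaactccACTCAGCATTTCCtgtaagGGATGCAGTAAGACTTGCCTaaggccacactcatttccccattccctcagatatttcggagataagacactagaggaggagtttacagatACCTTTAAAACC
Stfa2l1, chr16:36156661-36156810, plus strand: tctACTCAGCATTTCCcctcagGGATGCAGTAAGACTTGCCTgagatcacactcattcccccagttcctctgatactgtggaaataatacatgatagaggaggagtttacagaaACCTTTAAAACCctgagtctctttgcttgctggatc
Stfa1, chr16:36276998-36277147, plus strand: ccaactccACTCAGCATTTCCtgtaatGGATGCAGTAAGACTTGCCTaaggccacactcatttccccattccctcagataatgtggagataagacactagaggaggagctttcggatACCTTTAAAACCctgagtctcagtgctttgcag
Stfa2, chr16:36408364-36408513, minus strand: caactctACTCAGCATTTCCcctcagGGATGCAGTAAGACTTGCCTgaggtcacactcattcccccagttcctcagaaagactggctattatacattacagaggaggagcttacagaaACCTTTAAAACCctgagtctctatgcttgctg
Cst7, chr2:150570265-150570414, plus strand: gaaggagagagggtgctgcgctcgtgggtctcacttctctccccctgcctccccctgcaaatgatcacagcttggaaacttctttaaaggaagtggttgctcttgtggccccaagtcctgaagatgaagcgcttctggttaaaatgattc

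The shared runs numbered 3 and made up 45 of the 150 bases of each stefin stretch, and none of them was found in the Cst7 stretch. The longest, GGATGCAGTAAGACTTGCCT, was 20 bases long and occurred in 4 of 32851 RefSeq promoter windows (250 bases before to 50 after each start, both strands searched), those of the 4 members. ACTCAGCATTTCC occurred in 10 windows, among them those of the cluster genes Csta1, Csta3, Cstdc3 and Stfa3, and ACCTTTAAAACC in 11. These runs were picked from the members' own sequences, so their rarity elsewhere is a description. ACCTTTAAAACC began 12 bases before the annotated start of Cstdc5, and 36, 33 and 32 bases before those of Stfa2l1, Stfa1 and Stfa2. The annotated starts of these close copies are thus not placed at matching bases.

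Aligned over the 250 bases before the start, the stefins fell into a pair of closer matches. Cstdc5 and Stfa1 were identical at 95.7% of 230 aligned positions, and Stfa2l1 and Stfa2 at 91.9% of 247. Between these pairs the identity was 80.9% to 84.1%. Cst7 aligned to no stefin over more than 32 positions. The members' windows were searched on both strands for sites of transcription factors of the myeloid and osteoclast lineage. Any 1 site was matched in at most 3 of the 5 members. Cstdc5 and Stfa1 are close copies here, so their matches are not independent. The letters GAGGAAG, the core bound by PU.1, were in Cstdc5 and Stfa1 and in 13.6% of all windows. TTNNGCAA, a relaxed form of the C/EBP site, was in Cstdc5, Stfa1 and Cst7 and in 10.8% of all windows, while the strict palindrome TTGCGCAA, a special case of it, was in no member and in 0.183% of windows. The AP-1 letters TGANTCA were in Cst7 alone (7.81% of all windows), and the NFAT core TGGAAA in Stfa2l1 and Cst7 (21.4%). No member held the exact letters TATAAA, a form of the TATA box, which were in 13.6% of windows. Variants of the TATA box were not searched for. A match here is a string of letters, and binding was not measured.

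All 5 probe sets were up-regulated with sRANKL in each of the 3 experiments. By the mean of the log2 differences, Cstdc5 was 16.7-fold higher, Stfa2l1 9.27-fold, Stfa1 7.79-fold, Cst7 7.74-fold and Stfa2 2.92-fold. The median member log2 difference was 2.96. The median over all 2685 distinct profiles in the table (a profile is the set of 6 values of a probe set, with exact repeats counted once) was 0.50. Intensities are RMA values on a linear scale, and the brightness of one probe set is not comparable with that of another.

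**Figure D1:**
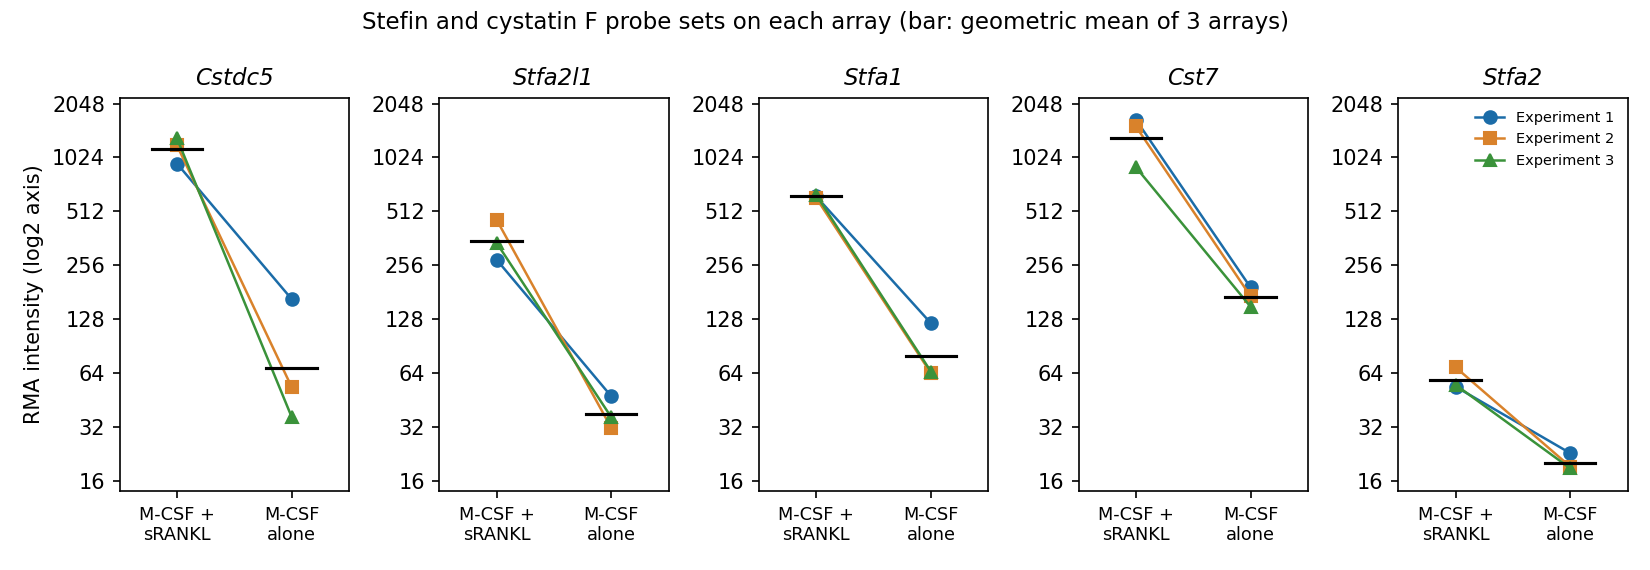
RMA intensity (vertical log2 axis) of the 5 probe sets on each of the 6 arrays, with M-CSF + sRANKL on the left and M-CSF alone on the right of each panel. Lines join the partner dishes of an experiment and black bars are geometric means. Every sRANKL point lies above every M-CSF alone point, and the Experiment 1 point is the highest of the M-CSF alone points in all 5 panels.

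Cstdc5, a stefin A related gene, showed the largest change of the family. The authors' list places its probe set at 36359468 to 36367834 of chromosome 16, minus strand (Entrez 100034684), and names no genome build for this or its other positions. In Experiments 1, 2 and 3 its intensity was 946, 1194.5 and 1307 with M-CSF + sRANKL, and 165.4, 53.3 and 36.3 with M-CSF alone. Treated dishes differed from each other by at most 1.38-fold, and the M-CSF alone dishes by up to 4.56-fold, so most of the spread between experiments lay on the control side. The increase was 5.72-fold in Experiment 1, 22.4-fold in Experiment 2 and 36.0-fold in Experiment 3. The control values of Experiments 2 and 3 were near the bottom of the table, with 1.73% and 0.588% of the deposited probe sets dimmer, against 28.9% in Experiment 1, so the size of the last 2 increases is the less certain. On the log2 scale the difference was 4.06 ± 1.38 (SD of the 3 experiments), the widest spread among the members. Leaving out the Experiment 1 control dish gave 25.9-fold, and leaving out both dishes of that experiment gave 28.4-fold. Among the 656 listed probe sets Cstdc5 ranked 7 by its log2 difference.

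Stfa2l1, named for its likeness to stefin A2, lies at one end of the measured cluster (36156897 to 36162038, plus strand), with Stfa2 at the other. Its intensity was 274.6, 458.7 and 340.8 with M-CSF + sRANKL, and 47.3, 31.5 and 36.1 with M-CSF alone. Its groups were far apart, with the lowest sRANKL dish 5.80-fold above the highest M-CSF alone dish. Within Experiments 1, 2 and 3 the increase was 5.80-fold, 14.6-fold and 9.43-fold. Its M-CSF alone values were near the bottom of the table, where 0.311% to 0.969% of the deposited probe sets were dimmer on the same array. The size of its increase is therefore uncertain in all 3 experiments.

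Stfa1, stefin A1, was the steadiest member in the treated dishes. Its intensity was 619.4, 607.1 and 631.6 with M-CSF + sRANKL, a range of 1.04-fold, and 121.2, 63.8 and 65.0 with M-CSF alone. Experiments 2 and 3 gave increases of 9.52-fold and 9.71-fold, and Experiment 1 gave 5.11-fold. In the control dishes of Experiments 2 and 3, 2.56% and 3.63% of the deposited probe sets were dimmer, against 16.8% in Experiment 1. The larger increases are therefore the less certain in size. The smaller increase in Experiment 1 went with an M-CSF alone dish 1.86-fold brighter than the next, while the treated dishes were level. The probe set is listed over 105238 bases (36180220 to 36285457, plus strand), whereas the other members span 4389 to 8528 bases. That span takes in the whole of the probe set of another stefin, Csta3, and which genes of the cluster give the Stfa1 signal was not tested.

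Stfa2, stefin A2, had the smallest difference of the 5 members. Its intensity was 53.6, 68.8 and 54.9 with M-CSF + sRANKL, and 22.8, 19.1 and 18.7 with M-CSF alone. All 3 sRANKL dishes were above all M-CSF alone dishes, by at least 2.35-fold. Within the experiments the increase was 2.35-fold, 3.59-fold and 2.93-fold. With M-CSF alone, 0.0692% to 0.138% of the deposited probe sets were dimmer, and the lowest intensity in the whole table was 13.2. Stfa2 thus stood next to the floor of the table in the control dishes. Its nearest match upstream, Stfa2l1, was 9.27-fold higher with sRANKL, from control values that were also near the bottom.

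Cst7 differs from the stefins in chromosome (150396151 to 150404678 on chromosome 2, plus strand), in upstream sequence and in its course over the experiments. Its intensity was 1664, 1527 and 902.4 with M-CSF + sRANKL, and 192.2, 171.6 and 149.9 with M-CSF alone. Control dishes were within 1.28-fold of each other, and the treated dishes within 1.84-fold, with Experiment 3 the lowest in both groups. The increase was 8.66-fold in Experiment 1, 8.90-fold in Experiment 2 and 6.02-fold in Experiment 3. Cst7 was the member with the largest increase in Experiment 1 and ranked 4 in Experiments 2 and 3. The 4 stefins had their smallest increase in Experiment 1.

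**Figure D2:**
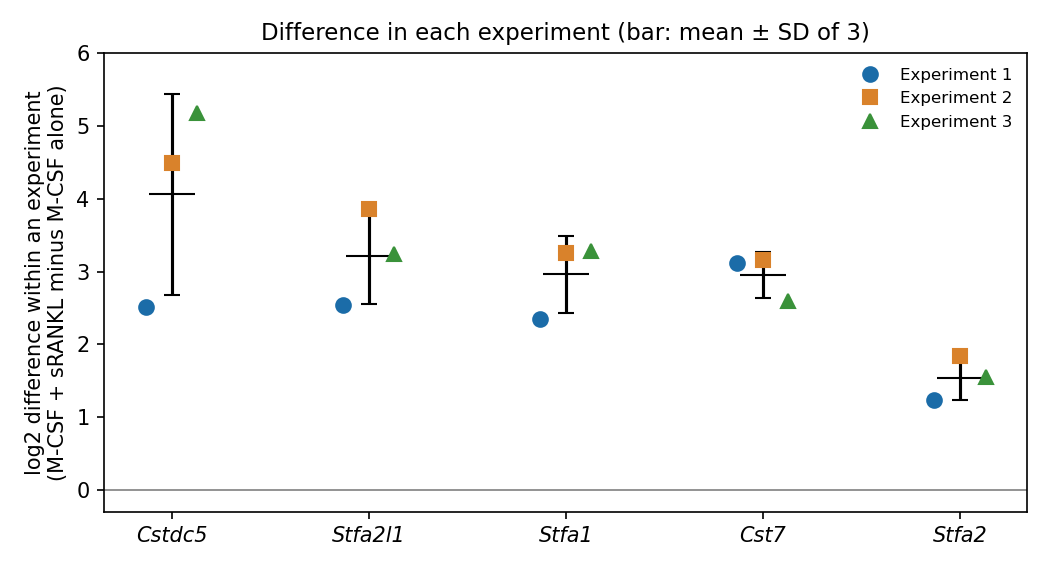
Log2 difference between partner dishes (M-CSF + sRANKL minus M-CSF alone) for each member, with 1 point per experiment and the mean ± SD of the 3 experiments. The stefins have their lowest point in Experiment 1, and Cst7 has its lowest in Experiment 3.

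The order of the differences depended on the experiment. Cstdc5 led in Experiments 2 and 3 but stood below Cst7 and level with Stfa2l1 in Experiment 1, at 5.72-fold and 5.80-fold. Stfa2l1, Stfa1 and Cst7 had log2 differences of 3.21 ± 0.66, 2.96 ± 0.53 and 2.95 ± 0.31 (SD, n = 3 each), which did not differ beyond their spread. Stfa2, at 1.54 ± 0.31, had the lowest value in each of the 3 experiments. Its control values lay beside the floor of the table and 1.45% to 2.60% of probe sets were dimmer in its treated dishes, so its place in this order is not firm. The control values of Stfa2l1 were also near the bottom of the table, so the place of Stfa2l1 is not firm either.

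Each of the 5 members had its highest M-CSF alone intensity in Experiment 1, which was the case for 26.9% of all distinct profiles and for 39.9% of the 371 listed ones that were higher with sRANKL. The smallest increase fell in Experiment 1 for 4 of the 5, and for 36.1% of those 371. The excess over the next M-CSF alone dish was 3.10-fold for Cstdc5, 1.86-fold for Stfa1, 1.31-fold for Stfa2l1, 1.19-fold for Stfa2 and 1.12-fold for Cst7. The named osteoclast and neutrophil markers also had their highest control sum in that dish, though not every gene did. Of the neutrophil markers, Ms4a3, Ctsg and Prtn3 were highest there, and Mpo was not (700.9, against 705.25 in Experiment 3). Trem3 (158.1, 214.6 and 183.4 with M-CSF alone) and Trem1 (83.9, 129.5 and 99.1) were lowest in Experiment 1. For the osteoclast markers the summed intensity (Mmp14, Mmp9, Acp5, Ctsk, Atp6v0d2, Car2 and Itgb3, 7 of the 17 on the list) was 8414, 10518 and 8327 with M-CSF + sRANKL, and 1270, 682.7 and 774.6 with M-CSF alone. Mmp14, Acp5 and Mmp9 made up most of this sum in the Experiment 1 control dish, while Car2 was at 37.1, 38.2 and 30.9 with M-CSF alone and so was not highest in Experiment 1. The part of either marker group in the smaller stefin increases of that experiment was not tested.

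The 4 stefin probe sets and that of Csta3 lie within 251.5 kb of chromosome 16 on the authors' map. Csta3 (listed as EG408196, a predicted gene) did not meet the naming rule, and is given here as the only other stefin gene on the list. Its intensity was 56.0, 66.6 and 66.3 with M-CSF + sRANKL, and 26.1, 21.5 and 25.2 with M-CSF alone, an increase of 2.60-fold. Its increase was close to that of Stfa2, and like Stfa2 it lay near the floor of the table. With M-CSF alone 0.138% to 0.311% of probe sets were dimmer, and with M-CSF + sRANKL 1.63% to 2.98%. The size of either increase, and so their likeness, is not firm. RefSeq places 11 stefin genes in the cluster, in the order Csta1, Stfa2l1, Cstdc4, Csta3, Csta2, Stfa1, Cstdc3, Cstdc6, Cstdc5, Stfa2 and Stfa3. The increases as measured did not follow this order, as Stfa2, the neighbour of Cstdc5, had the smallest among the members, though near the floor. Genes this alike can share probe signal, and how the signal divides among them was not tested.

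**Figure D3:**
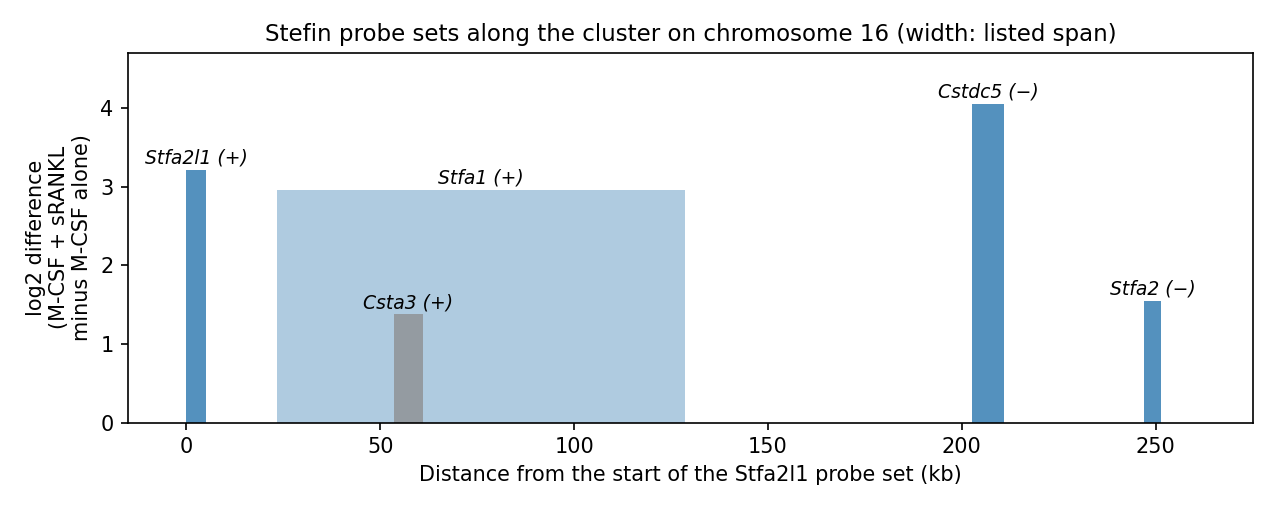
Log2 difference (vertical axis, M-CSF + sRANKL minus M-CSF alone) of the stefin probe sets against their distance in kb from the start of the Stfa2l1 probe set, with the width of each bar as its listed span. The Stfa1 bar (pale) covers 105238 bases and encloses Csta3 (grey), and Cstdc5 and Stfa2 are on the minus strand.

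For scale, limma called 2131 of the 2685 distinct profiles changed at an adjusted p under 0.05, with 721 of these at least 2-fold different, 470 higher and 251 (9.35% of all) lower. All 5 members were among the profiles called higher, as were 48.2% of all profiles, and all 5 were also at least 2-fold higher, as were 17.5%. These are shares of the deposited probe sets, not of the whole array, and how those were chosen is not stated. In all 5 the lowest sRANKL array was above the highest M-CSF alone array, which held for 48.3% of profiles. Membership required a listed change, so these counts were fixed beforehand. The balance of directions depended on the scaling. With each array centred on its median, which lowered the median difference of all profiles to 0.23, the profiles changed at least 2-fold were 263 higher and 644 lower, and after quantile normalization 309 and 503. All 5 members were still higher under both.

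**Figure D4:**
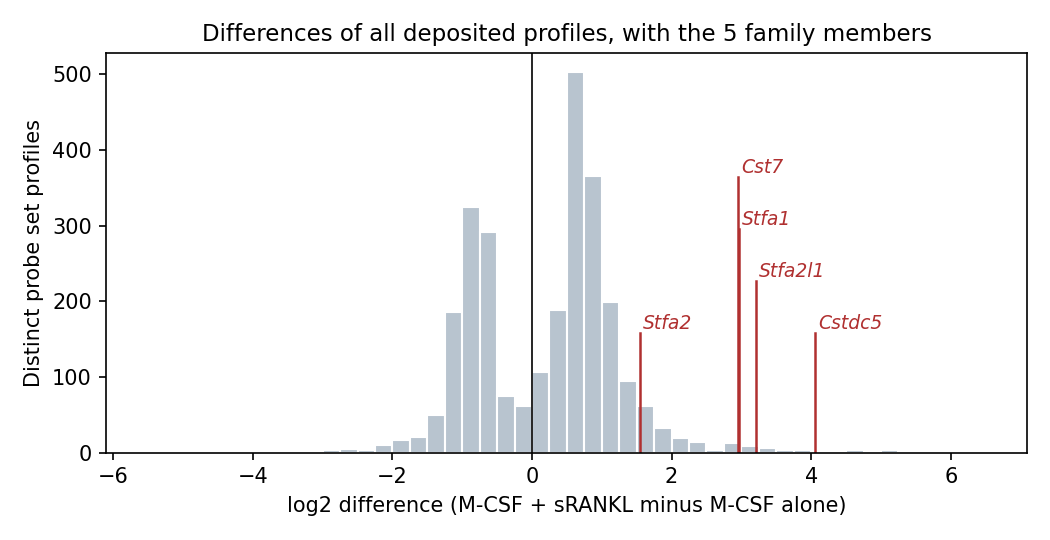
Number of distinct profiles (vertical axis) by log2 difference (sRANKL dishes minus control dishes), with the 5 members marked by lines whose heights carry no meaning. The members lie between 1.54 and 4.06, and the median of all profiles is 0.50.

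The named genes whose course over the 6 arrays was most like that of the family were Hp (haptoglobin), Mmp9, Cp (ceruloplasmin), Acp5 (TRAcP) and Mmp14, with a Pearson r of 0.999, 0.998, 0.997, 0.997 and 0.997 to the median member profile. Hp is the plasma carrier of free haemoglobin and Cp a copper-containing ferroxidase. These values describe 6 arrays that share a treatment difference, and the median r was 0.915 over the 531 named profiles outside the family and 0.950 over the 345 of them that were higher. Among the members themselves r ran from 0.974 for Cst7 to 0.998 for Stfa1. Each member is part of the median profile, so its r was high in part by construction and is no measure of likeness within the family. The intensity of Hp was 2697, 3274 and 2818 with M-CSF + sRANKL, and 717.1, 457.6 and 427.1 with M-CSF alone. Its increase was 3.76-fold, 7.15-fold and 6.60-fold in Experiments 1, 2 and 3, a course like that of the stefins by the way Hp was chosen.

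Of 15 listed cysteine proteases of the class that cystatins inhibit, 2 are named in the tables, Ctsk as higher and Ctsf as lower. A gene has a name only through the authors' list of changes, so that both passed the test was fixed beforehand. Ctsk, cathepsin K, had an intensity of 701.3, 1280 and 844.5 with M-CSF + sRANKL, and 117.5, 98.7 and 90.2 with M-CSF alone. Its 8.98-fold increase lay between those of Stfa1 and Stfa2l1. Ctsf, cathepsin F, was at 125.3, 138.1 and 135.7 with M-CSF + sRANKL, and at 365.2, 280.8 and 286.2 with M-CSF alone, which is 0.431 of the M-CSF alone level. The other 13 proteases on the list, cathepsins C, L and S among them, are unnamed in the tables and were not analysed.

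Of 28 listed markers of neutrophils and their precursors, 6 are named (Ms4a3, Ctsg, Trem3, Trem1, Prtn3 and Mpo). All 6 passed the test as higher, as their naming required a listed change and 345 of the 531 named profiles outside the family were higher. They lay between 2.49-fold for Mpo and 4.55-fold for Ms4a3. Their summed intensity was 6733, 8119 and 10706 with M-CSF + sRANKL, and 2730, 1957 and 2409 with M-CSF alone. Brighter probe sets weigh more in such a sum, and Ctsg, Prtn3 and Mpo made up most of it in every dish. Among the treated dishes this sum was highest in Experiment 3, as were Cstdc5 and, within a range of 1.04-fold, Stfa1. Stfa2l1 and Stfa2 were highest in Experiment 2 and Cst7 in Experiment 1. Ms4a3, Ctsg, Prtn3 and Mpo were each highest in Experiment 3 too. Trem3, at 550.4, 1034 and 802.8 in the sRANKL dishes, and Trem1, at 477.2, 501.6 and 297.5, were not. The other 22, Elane, Ly6g, S100a8 and Ltf among them, have no name here. The part of granulocytic cells in the stefin signal was not tested, and in RNA from whole dishes more cells of a type and more RNA per cell cannot be told apart. Of 16 macrophage and monocyte markers 2 are named, Apoe and Ccr2, both called lower with sRANKL, at 0.106 and 0.49 of the M-CSF alone level.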

How the data were processed

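The submitters' processing notes name RMA and R 2.71 for the step from scans to values. The table the authors deposited has a linear RMA intensity for each of 2890 probe sets on each array, and the sources used here do not say how the probe sets were chosen. A second deposited table, with group means, fold changes and p-values of the authors' own comparison for 656 probe sets, was read only for gene names and positions. Of its rows 547 were found in the RefSeq table of GRCm38.p6 by Entrez number, and 62 symbols changed, predicted gene numbers aside. Columns were matched to samples by the samples' descriptions.

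Log2 intensities of the 2685 distinct profiles were fitted with limma 3.58.1 (lmFit and eBayes, no block) in R 4.3.3. The contrast was treated minus control, with Benjamini-Hochberg adjustment and a threshold of 0.05. The code was tested on simulated data. Promoter windows were aligned with Biopython 1.88 (end gaps free). Plots and summaries used Python 3.11.15. With 3 arrays per group, precision is limited by their number.

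Both dishes of an experiment were filled from 1 pool, and the samples are paired by that number. The partners' deviations from their group means had correlations of 0.555, 0.526 and 0.648 within Experiments 1, 2 and 3.

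The members, gene lists and motifs were chosen with earlier results of these data known. Named in the text are every member, the 5 genes most like the family in profile, and the named genes of the listed proteases, inhibitors and cell type markers. Of the remaining lists, mast cells, basophils and eosinophils had no named gene, dendritic cells had 3 (Ccr7 higher, H2-Eb1 and Cd209a lower), and lymphoid, erythroid and stromal cells had 1 (Dcn, higher). All 37 listed cystatin superfamily genes were searched, and 6 are named, the 5 members and Csta3.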

Additional observations from a re-analysis of the deposited data

How the results depend on the processing

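All 5 members stayed higher with sRANKL under every alternative that gave them a value. Of 63 alternative log2 differences of single members, 62 moved by less than the SD of the 3 experiments. The exception was Stfa2, at 1.18 after quantile normalization against 1.54 as deposited. The ranges were 3.50 to 4.83 for Cstdc5, 2.89 to 3.55 for Stfa2l1, 2.69 to 3.27 for Stfa1 and 2.68 to 3.23 for Cst7. A filter at a mean log2 intensity of 7 left out Stfa2l1 and Stfa2. The median member difference was between 2.85 and 3.27 when arrays or experiments were left out. The experiment as a replicate block gave 2450 changed profiles as a fixed and 2397 as a random block, where the fit without it gave 2131. Every experiment has both treatments, so the block cannot change a member's difference, and the median stayed at 2.96. The intensity filter cannot change a member's difference either. The values of the fixed block and the filter among the 63 were thus fixed beforehand. For changes of 2-fold or more the counts were 769 with either block and 721 without. With arrays or experiments left out, changed profiles numbered 1024 to 2257, the lowest without both arrays of Experiment 3, and those changed at least 2-fold 670 to 928. The other alternatives, the methods' t-test with adjustment among them, kept both counts within 1.5 times. The members were selected as changed on these arrays, so their stability was largely fixed by that selection.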

Other observations

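Of 25 listed protease inhibitors 6 are named, 1 of them Stfa1 itself, and all 6 passed the test as higher. A name required a place on the authors' list of changes, and 345 of the 531 named profiles outside the family were higher, against 17.5% of all profiles called at least 2-fold higher, so the count says nothing about inhibitors as a group. Wfdc17, of the whey acidic protein family, was 3.66-fold higher, Serpinb8 3.56-fold, Slpi, an inhibitor of neutrophil elastase and cathepsin G, 3.31-fold, Serpinb1a, which also inhibits neutrophil serine proteases, 3.11-fold, and Timp1, an inhibitor of matrix metalloproteases, 2.04-fold. Slpi had an intensity of 1109, 1959 and 1334 with M-CSF + sRANKL, and 480.0, 399.5 and 418.1 with M-CSF alone. Serpinb1a was at 486.0, 669.8 and 988.5 with M-CSF + sRANKL, and at 250.3, 197.4 and 217.1 with M-CSF alone, and like Cstdc5 it had its largest increase in Experiment 3. The other 19 inhibitors were not analysed.

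Of 9 listed lysosomal proteases of other classes 2 are named. Ctsg, the serine protease cathepsin G of neutrophil granules, was 4.26-fold higher, with 1860, 2295 and 3483 with M-CSF + sRANKL, and 737.2, 462.6 and 563.6 with M-CSF alone. Ctse, the aspartic protease cathepsin E, was at 0.376 of the M-CSF alone level, with 550.5, 730.0 and 905.7 with M-CSF + sRANKL, and 1521, 2169 and 2082 with M-CSF alone. Both were named through the same list, and their directions were opposite.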
